A study of Mus musculus with 20 samples.

Results

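SMA was compared with control in the polysomal RNA (POL-seq) of early-symptomatic mouse brains, taken on postnatal day 5. The comparison rests on 4 libraries of the 20 in the series, 2 from SMA mice and 2 from control littermates. Members had to be protein-coding, to average 1 FPKM or more over these 4 libraries and to be above 0 in each, and 12986 of the 45700 genes in the deposited table met this rule. FPKM, fragments scaled to transcript length and to the size of the library, is a level per length and carries no read count, so the depth behind a single value is unknown and no counting interval is given. At the edge of the rule, Spata20 averaged 0.998 FPKM and was left out, whereas Kcnd1 and Cdc42bpg averaged 1 FPKM and were kept. A further 63 protein-coding genes averaged at least 1 FPKM but were listed at 0 in a library, and 57 of them were at 0 in both control libraries and above 0 in both SMA libraries. Of these, 54 stood at 1 chromosome 8 locus, and Map1b and Tuba1b, of the neuronal cytoskeleton, were at other loci. An exact 0 in such a file can be a failed estimate, so none of the 63 was tested.

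SMA mice were of the "Taiwanese" model on a congenic FVB background. They lacked murine Smn and carried 2 copies of the human SMN2 gene on 1 allele (Smn-/-; SMN2tg/0). Control littermates kept 1 functional Smn allele and carried the same transgene (Smn-/+; SMN2tg/0), so that neither group was wild type. Libraries were prepared with a stranded total RNA kit, which does not rely on poly(A) tails. The comparison sets are total cytoplasmic RNA of day 5 brains, with 2 libraries per genotype, and polysomal RNA of day 7, late-symptomatic brains of other mice, with 3 libraries per genotype. The labels describe each sample as RNA of a mouse brain and number the replicates, and p-values measure only the spread between these samples.

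Polysomes are mRNAs that carry several ribosomes, so polysomal RNA samples the transcripts that are being translated. SMN, the protein that is scarce in spinal muscular atrophy, loads Sm proteins onto small nuclear RNAs, and 1 of the particles assembled in this way cuts the ends of histone mRNAs that lack a poly(A) tail. The brain of the newborn mouse still holds dividing progenitors and glia, and its vessels are still branching and closing the blood-brain barrier. Each sample held a mixture of cell types, and in such material fewer cells of a type and less RNA per cell cannot be told apart.

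The libraries differed in ways that the genotype does not name. SMA replicate 1 listed Xist, the RNA that silences an X chromosome, at 2.34 FPKM and the Y-linked Ddx3y at 0.15 FPKM, whereas Ddx3y lay between 22.2 and 27.8 FPKM in the other 3 libraries and Xist at or below 0.1 FPKM. Genotype and sex were therefore unbalanced, and the numbers of genes are also given without SMA replicate 1. SMA replicate 2 listed the photoreceptor gene Pdc at 7.68 FPKM, against at most 0.08 FPKM elsewhere, and control replicate 2 listed the lens gene Cryge at 8.82 FPKM, against at most 0.23 FPKM elsewhere. These eye genes were picked once their values were known, and their part in other results was not tested.

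In total, 2220 of the 12986 genes (17.1%) had an unadjusted p under 0.05 in limma and were taken as DEGs. Of these, 856 (6.59% of the genes tested) were higher and 1364 (10.5%) lower in SMA. After Benjamini-Hochberg adjustment 37 genes (0.285%) passed, 35 of them lower in SMA, and 623 (4.8%) had an unadjusted p under 0.01. The genotypes did not overlap in 53.2% of all genes tested, with SMA lower in 29.6% and higher in 23.7%, so that lack of overlap by itself says little with 2 libraries a side. Without SMA replicate 1 the fit called 1766 genes, 872 higher (6.71%) and 894 lower (6.88%), and 176 (1.36%) passed after adjustment. The adjusted count was 68 without SMA replicate 2, 0 without control replicate 1 and 1 without control replicate 2. The lower share of the DEGs was 61.4%, and it was 50.4% after quantile normalization and 55.2% after the correction for transcript length described below.

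The targeted gene was read first. Smn1 was at 8.61 and 11 FPKM in the controls and at 9.65 and 9.34 FPKM in the SMA libraries. The SMA values lay within the range of the controls, and the log2 change was -0.04 ± 0.16 (SE). The knockout allele removes only a part of the gene, so a value summed over the gene does not check the genotype. Of the 9 measured members of the SMN complex, 1 was called (11.1%, a share near the 10.5% of all genes called lower), and with 1 library left out the count lay between 0 and 3. This was Gemin7, a subunit that binds Sm proteins, at 20.3 and 22.1 FPKM in controls and 16.97 and 16.01 FPKM in SMA, a fall by 0.36 on the log2 scale that was -0.07 after the length correction.

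**Figure D1:**
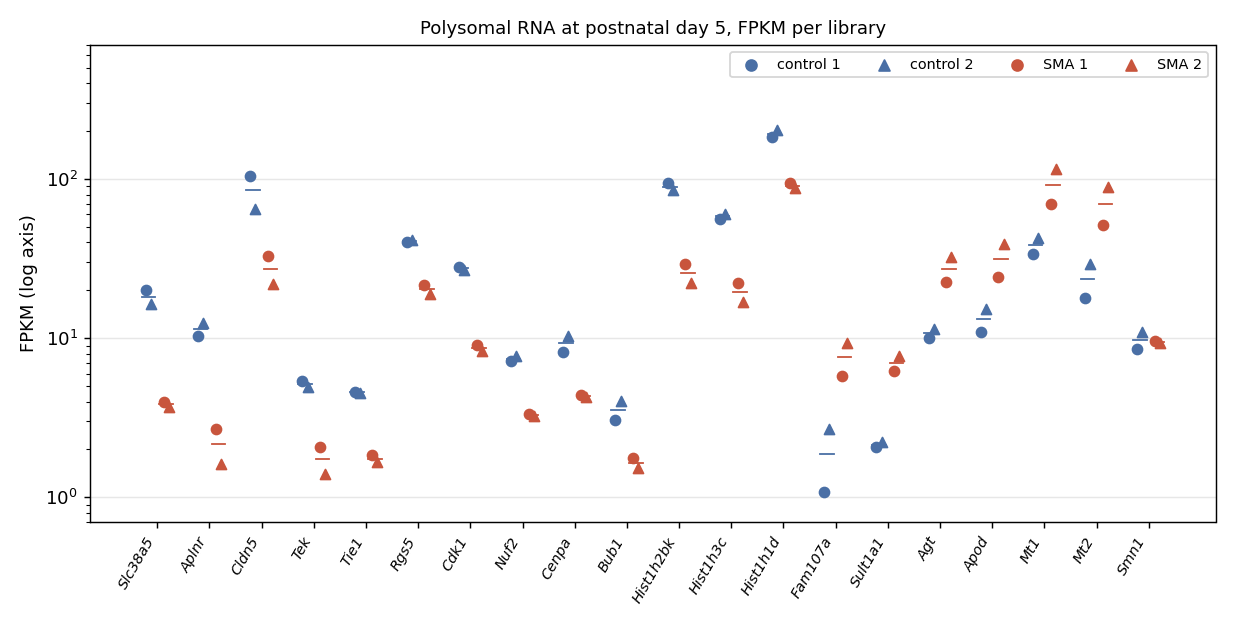
FPKM on a log axis of 20 genes in the 4 polysomal libraries of day 5 brain, with control in blue and SMA in red, replicate 1 as circles, replicate 2 as triangles and the group mean as a bar. From Slc38a5 to Hist1h1d both SMA libraries lie below both controls, from Fam107a to Mt2 both lie above them, and for Smn1 the genotypes overlap.

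The genes of replication-dependent histones were mostly lower. These genes supply the core and linker proteins that package newly copied DNA, and their mRNAs peak in S phase. Of 56 members tested, 51 fell in SMA and none rose, against 10.5% of all genes called lower, and 20 passed the adjusted threshold. Their median log2 change was -1.13, against -0.03 over all genes tested. Summed over the list, FPKM were 6794 and 6930 in the controls and 3674 and 3375 in SMA, and Hist1h4d was the most abundant member. The genotypes did not overlap, and the exact two-sided permutation p was 0.333, the smallest that 2 against 2 allows.

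Genes of every histone class were lower. All 14 H2A genes and all 10 H3 genes were called lower, as were 11 of 12 H4, 12 of 15 H2B and 4 of 5 H1 genes. The class medians ran from -1.43 for H2A to -1.02 for H4 on the log2 scale. Hist1h2bk, an H2B gene (GRCm38 chr13:22035870-22036345, plus strand), was at 94.1 and 84.9 FPKM in controls and at 29.5 and 22.1 FPKM in SMA. Both SMA libraries lay well below both controls, and the log2 change was -1.80 ± 0.17 (SE, adjusted p = 0.0218). Hist1h3c, an H3 gene, was at 56.2 and 60.8 FPKM in controls and at 22.1 and 16.9 FPKM in SMA, a log2 change of -1.59 ± 0.16 (SE, adjusted p = 0.0218). The linker gene Hist1h1d was at 184.1 and 202.1 FPKM in controls and at 93.9 and 87.7 FPKM in SMA, with a log2 change of -1.09 ± 0.14 (SE, adjusted p = 0.0385).

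The 5 members that were not called were Hist1h4c, Hist3h2ba, Hist1h1c, Hist1h2bc and Hist2h2be. Hist1h2bc was at 23.9 and 20.0 FPKM in controls and at 23.8 and 20.4 FPKM in SMA, so that the genotypes overlapped. Copies of histone genes are nearly identical in sequence, and reads could be divided among them in ways that make a single gene's value uncertain. The 11 members of the list that were not tested stayed under the rule on low values or on zeros. The list's count was 48 without SMA replicate 1 and 41 of the 54 with a length, with a median of -0.71, after the length correction.

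Genes of the cell cycle moved in the same direction. Of 48 members tested, 40 fell and none rose, against 10.5% of all genes called lower, with a median log2 change of -0.70. Cdk1, the kinase that drives entry into mitosis (GRCm38 chr10:69336635-69352938, minus strand), was at 28.2 and 26.8 FPKM in controls and at 9.08 and 8.33 FPKM in SMA. The SMA values were about 3.16-fold lower by the ratio of means, and the log2 change was -1.65 ± 0.13 (SE, adjusted p = 0.0143).

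Other members acted at the kinetochore, the site where chromosomes meet the spindle. Nuf2, a subunit of the complex that holds microtubules, was at 7.15 and 7.76 FPKM in controls and at 3.36 and 3.27 FPKM in SMA (log2 change -1.14 ± 0.15, SE, adjusted p = 0.0423). Cenpa, the histone variant of centromeres, was at 8.21 and 10.3 FPKM in controls and at 4.42 and 4.25 FPKM in SMA. Bub1, a kinase of the spindle checkpoint, was at 3.07 and 4.01 FPKM in controls and at 1.78 and 1.53 FPKM in SMA. In all 3 genes both SMA libraries lay below both controls, with log2 changes of -1.07 for Cenpa and -1.04 for Bub1 that did not pass the adjusted threshold. Mcm7 and Rrm1, which serve DNA replication and nucleotide supply, were not called. After the length correction 33 of 48 were called lower, with a median of -0.67. The count was 32 without SMA replicate 1 and 25 without control replicate 2.

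Because histone and cell cycle genes moved together, their promoters are shown. Of the called members, 47 histone genes and 36 cell cycle genes had a RefSeq promoter under their symbol or an older one. The letters CCAAT, read on both strands, stood in the 250 bases before the start in 83% of these histone genes and 75% of these cell cycle genes, against 37.5% of all 27025 genes with a promoter and 40.9% of the genes tested. The octamer ATTTGCAT stood in 25.5% of the histone promoters and 1.81% of all, and TTTGAA, the core of the cell cycle homology region, in 25% of the cell cycle promoters, 18.3% of all and 12.6% of those of genes tested. Among the members that were not called, CCAAT stood in 3 of the 3 histone and in 5 of the 7 cell cycle promoters that matched, and TTTGAA in 2 of those 7. The promoters of Hist1h2bk (RefSeq name H2bc12, GRCm38.p6 chr13:22035571-22035820, plus strand) and Cdk1 (GRCm38.p6 chr10:69352913-69353162, minus strand) are given 5′ to 3′, with CCAAT or its reverse complement, the octamer and TTTGAA in capitals.
Hist1h2bk: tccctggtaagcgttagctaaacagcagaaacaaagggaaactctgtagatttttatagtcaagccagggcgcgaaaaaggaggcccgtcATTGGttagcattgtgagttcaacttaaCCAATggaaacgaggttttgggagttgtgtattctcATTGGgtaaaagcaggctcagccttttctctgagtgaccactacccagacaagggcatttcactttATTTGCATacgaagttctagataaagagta
Cdk1: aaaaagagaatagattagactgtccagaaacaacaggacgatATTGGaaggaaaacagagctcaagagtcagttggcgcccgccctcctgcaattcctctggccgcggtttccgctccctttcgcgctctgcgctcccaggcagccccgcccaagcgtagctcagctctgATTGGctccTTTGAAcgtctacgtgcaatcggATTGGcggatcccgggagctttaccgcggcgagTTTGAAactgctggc
The Hist1h2bk promoter held 3 CCAAT letters and 1 octamer, and the Cdk1 promoter 3 CCAAT letters and 2 TTTGAA letters. A match is a description of the letters and not of a bound factor.

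Among genes of the vessel wall, those of endothelium were mostly lower. Of 26 endothelial genes tested, 15 fell and 3 rose, against 10.5% and 6.59% of all genes, with a median log2 change of -0.56. Summed over the 30 genes on the list, the 4 not tested included, FPKM were 286.1 and 237.5 in the controls and 164.1 and 146.9 in SMA. Cldn5 was the most abundant member. The genotypes did not overlap in this sum (exact two-sided permutation p = 0.333). After the length correction 15 were lower and 4 higher, and without SMA replicate 1 there were 13 lower and 1 higher.

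Among the receptors, Aplnr, which binds apelin on growing endothelium (GRCm38 chr2:85136225-85139923, plus strand), was at 10.3 and 12.5 FPKM in controls and at 2.69 and 1.61 FPKM in SMA. Its SMA libraries lay far below the controls, with a log2 change of -2.39 ± 0.24 (SE, adjusted p = 0.0218). Tek, the receptor of angiopoietins, was at 5.42 and 4.97 FPKM in controls and at 2.08 and 1.41 FPKM in SMA (log2 change -1.54 ± 0.22, SE, adjusted p = 0.0431). Its relative Tie1 was at 4.59 and 4.55 FPKM in controls and at 1.84 and 1.67 FPKM in SMA (log2 change -1.33 ± 0.17, SE, adjusted p = 0.0400). Both tyrosine kinase receptors were thus lower in each SMA library than in each control.

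The 3 endothelial genes that rose were Apln, Angpt2 and Plvap, which are named here after their values were seen. Apln, the ligand of Aplnr, was at 6.06 and 5.59 FPKM in controls and at 9.63 and 7.96 FPKM in SMA, a log2 change of 0.58 ± 0.16 (SE, adjusted p = 0.183). Angpt2, a ligand of Tek, was at 2.29 and 1.58 FPKM in controls and at 2.90 and 3.39 FPKM in SMA, a log2 change of 0.69 (adjusted p = 0.222). Plvap, which forms the diaphragms of leaky vessels, rose by 0.70 on the same scale (adjusted p = 0.276). For the first pair of genes the genotypes did not overlap, and ligand and receptor moved in opposite directions.

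Barrier genes were divided. Slc38a5, an amino acid transporter of brain endothelium (GRCm38 chrX:8271133-8280179, plus strand), was at 20.0 and 16.3 FPKM in controls and at 3.95 and 3.72 FPKM in SMA. This was a 4.74-fold difference of the means and the smallest adjusted p of the comparison (log2 change -2.21 ± 0.16, SE, adjusted p = 0.00974). Cldn5, the main claudin of the barrier's tight junctions, was at 104.9 and 65.2 FPKM in controls and at 33.0 and 21.8 FPKM in SMA, with a log2 change of -1.62 ± 0.26 (SE, adjusted p = 0.0691). On a list of 22 barrier genes, mostly transporters, 7 fell and 1 rose (31.8% and 4.55%, against 10.5% and 6.59% of all genes), and their median was -0.18. This median was -0.10 without control replicate 1 and -0.11 without SMA replicate 2. Without control replicate 1, or without SMA replicate 2, 4 were lower. Others that fell were Slc39a8, a zinc and manganese importer (-1.01), and Slc16a1, a carrier of lactate and ketones (-0.94). Slc2a1, the glucose transporter of the barrier, was at 13.3 and 9.98 FPKM in controls and at 12.4 and 13.3 FPKM in SMA, and it was not called.

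Pericytes, the contractile cells on capillaries, gave 5 lower and no higher genes of 18 (27.8%, against 10.5% of all genes), with a median of -0.33. Of 12 smooth muscle genes 4 were lower (median -0.29), but 0 after the length correction, 2 without SMA replicate 1 and 1 without SMA replicate 2, and of 28 genes of collagens and basement membrane 3 were lower (10.7%, median -0.06), a share near that of all genes. Rgs5, a regulator of G protein signalling that marks these cells, was at 40.5 and 41.3 FPKM in controls and at 21.7 and 18.9 FPKM in SMA (log2 change -1.01 ± 0.14, SE, adjusted p = 0.0431). Both SMA libraries lay well below both controls. The defining genes Pdgfrb and Cspg4 were not called, at -0.20 and 0.35 on the log2 scale.

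**Figure D2:**
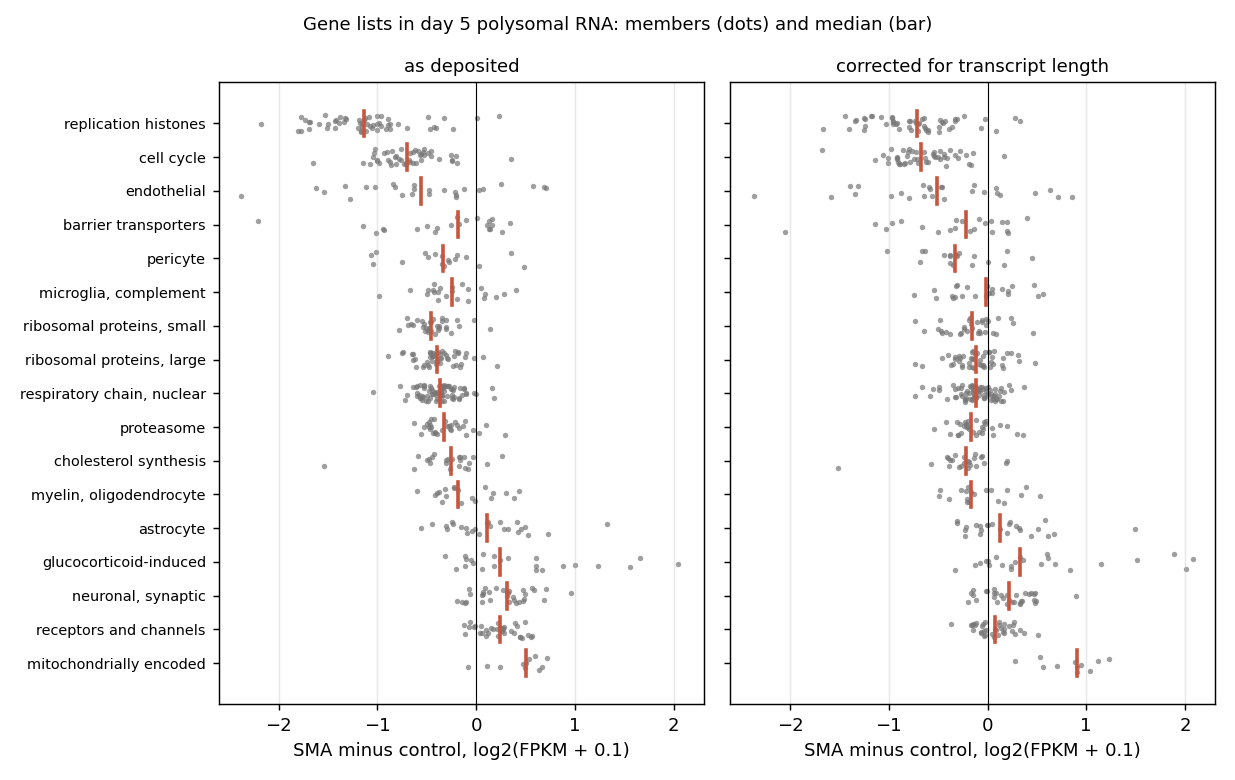
Log2 change between SMA and control in day 5 polysomal RNA for the tested members (dots) of 17 gene lists, with the list median as a red bar, as deposited on the left and after the correction for transcript length on the right. The medians of replication histones (-1.13 on the left, -0.71 on the right), cell cycle (-0.70, -0.67) and endothelial genes (-0.56, -0.52) lie below 0 in both panels, and those of the ribosomal, respiratory chain and proteasome lists move towards 0 on the right.

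Some genes known to respond to glucocorticoids rose. Of 23 tested, 9 rose and none fell, against 6.59% of all genes called higher, and the median log2 change was 0.25. The count was 10 after the length correction and 11 without SMA replicate 1. Sult1a1, a sulfotransferase, was at 2.07 and 2.22 FPKM in controls and at 6.25 and 7.77 FPKM in SMA. Its means differed 3.27-fold without overlap, and the log2 change was 1.66 ± 0.18 (SE, adjusted p = 0.0226).

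Fam107a, an actin-binding stress response gene (GRCm38 chr14:8296274-8318023, minus strand), had the highest log2 change of the genes that were called higher, 2.05 ± 0.39 (SE, adjusted p = 0.0989). It was at 1.08 and 2.68 FPKM in controls and at 5.82 and 9.34 FPKM in SMA. Cdkn1a, an inhibitor of cyclin-dependent kinases, was at 5.85 and 8.86 FPKM in controls and at 13.2 and 15.9 FPKM in SMA, a log2 change of 1.00 (adjusted p = 0.134). Per1, a clock gene that glucocorticoids induce, was at 3.63 and 5.18 FPKM in controls and at 7.05 and 9.20 FPKM in SMA. Both SMA libraries exceeded both controls in these genes, whereas Tsc22d3 (-0.21) and Glul (0.25), further targets on the list, were not called.

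Mt1 and Mt2, small proteins that bind zinc and copper, belong to the same list. Mt1 was at 34.0 and 42.6 FPKM in controls and at 70.0 and 114.9 FPKM in SMA (log2 change 1.24 ± 0.24, SE, adjusted p = 0.0989). Mt2 was at 18.02 and 29.1 FPKM in controls and at 51.5 and 88.8 FPKM in SMA (log2 change 1.56 ± 0.29, SE, adjusted p = 0.0975). SMA replicate 2 was the highest library for both, and control and SMA did not overlap. Mt3, the form of neurons and astrocytes, was not called (-0.19). The 250 bases before the RefSeq starts of Mt1 (GRCm38.p6 chr8:94178839-94179088, plus strand) and Mt2 (GRCm38.p6 chr8:94172368-94172617, plus strand) are given 5′ to 3′, with the core letters of the metal response element, TGCACNC or TGCGCNC on either strand, in capitals.
Mt1: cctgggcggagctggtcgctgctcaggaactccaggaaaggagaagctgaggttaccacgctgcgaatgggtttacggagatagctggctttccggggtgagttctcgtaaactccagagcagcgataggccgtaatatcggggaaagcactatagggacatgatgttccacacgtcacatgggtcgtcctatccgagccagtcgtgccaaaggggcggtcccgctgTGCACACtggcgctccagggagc
Mt2: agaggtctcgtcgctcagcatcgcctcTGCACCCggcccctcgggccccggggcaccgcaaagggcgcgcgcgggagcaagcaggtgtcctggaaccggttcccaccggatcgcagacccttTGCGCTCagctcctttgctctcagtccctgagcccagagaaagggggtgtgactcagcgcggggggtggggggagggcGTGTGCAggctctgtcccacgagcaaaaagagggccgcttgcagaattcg
These letters occurred once in the Mt1 window and 3 times in the Mt2 window, and at least once in 23.8% of all promoters and 35.1% of those of genes tested.

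Of 25 astrocyte genes 6 were higher (24%, against 6.59% of all genes) and 2 lower (8%, against 10.5%), with a median of 0.11. Without SMA replicate 2 the number higher was 3 and the median 0.002. Agt, the angiotensin precursor that astrocytes make (GRCm38 chr8:124556534-124569706, minus strand), was at 10.04 and 11.4 FPKM in controls and at 22.5 and 32.3 FPKM in SMA. It was 1 of the 2 genes that rose with an adjusted p under 0.05 (log2 change 1.33 ± 0.19, SE, adjusted p = 0.0460). Gfap, the filament of reactive astrocytes, was at 55.3 and 51.7 FPKM in controls and at 45.6 and 65.1 FPKM in SMA, and the genotypes overlapped. Of 3 neutrophil genes tested, S100a8 and S100a9, subunits of calprotectin, rose by 1.20 and 1.01 on the log2 scale. The count was 3 without SMA replicate 1 and 1 without any other single library, and the list median, 1.01, was 0.45 without SMA replicate 2. The other 9 genes of that list stayed below 0.4 FPKM in every library, with Elane at 0 in all 4.

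The change between genotypes followed transcript length. Over the 12951 genes with a length, taken as the longest transcript in Gencode M21, Spearman's rho between log2 change and length was 0.46, as a description across genes, which are not independent. Among the genes of 165 to 2021 nt, the shortest of 5 equal classes, the median change was -0.24 and 27.2% were called lower. In the longest class, from 5431 nt, the median was 0.17 and 17.7% were called higher. The slopes of each library on log2 length were -0.10 and -0.05 in the controls and 0.06 and 0.09 in SMA, with no overlap (exact two-sided permutation p = 0.333). The replicates of 1 genotype differed in the same manner, with a rho of -0.21 between control 1 minus control 2 and length. A correction was therefore made by removing, in each library, a smooth curve fitted over log length to how far each gene lay from its average. It left 1590 DEGs (12.3%), of which 712 (5.5%) were higher and 878 (6.78%) lower, and 5 (0.0386%) passed the adjusted threshold.

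**Figure D3:**
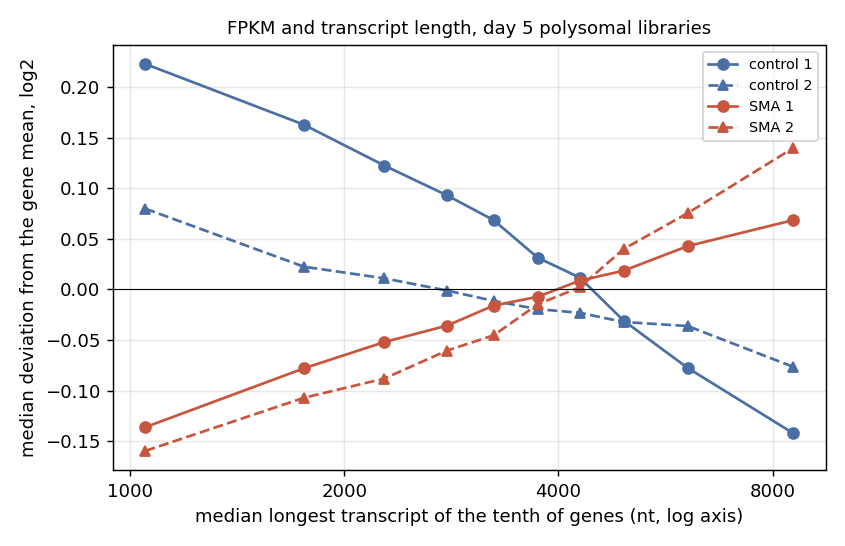
Median deviation of a library from the gene mean, on the log2 scale, for equal classes of genes ordered by the longest transcript (nt, log axis), with controls in blue and SMA in red, replicate 1 with circles and replicate 2 with triangles. Controls fall and SMA libraries rise with length, and control replicate 1 is the steepest of the 4 (slope -0.10).

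Genes of the ribosome, of oxidative phosphorylation and of the proteasome have short transcripts, with list medians of 1054 to 1851 nt, against 3426 nt for the cell cycle list, and their counts moved with this correction. The histone list is shorter still, at 536.5 nt, and its median moved from -1.13 to -0.71. Of 33 small and 48 large subunit proteins, 25 and 29 fell and none rose, against 10.5% of all genes called lower, with medians of -0.46 and -0.40. After the length correction 8 and 7 were lower, with medians of -0.16 and -0.11, against 6.78% of all genes. Quantile normalization left 8 and 10 lower. Without SMA replicate 1 the counts were 10 and 10. Without SMA replicate 2 the medians were -0.39 and -0.37, whereas the shares called lower were no higher than that of all genes.

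Rpl22l1, a paralogue of Rpl22, was at 269.7 and 214.6 FPKM in controls and at 143.0 and 116.8 FPKM in SMA, a log2 change of -0.90 ± 0.17 (SE, adjusted p = 0.09997) that was -0.73 after the correction. Rps21, a small subunit protein, was at 1005 and 977.5 FPKM in controls and at 667.9 and 553.2 FPKM in SMA. Its log2 change of -0.71 became -0.24 after the correction, where it was not called. Of 76 nuclear genes of the respiratory chain, 40 fell and none rose (median -0.36), against 10.5% of all genes, and after the correction 11 were lower (median -0.12), against 6.78%. Without the correction, the 40 became 14 without SMA replicate 1 and 6 without SMA replicate 2. Atp5e, a subunit of ATP synthase, was at 1037 and 805.5 FPKM in controls and at 562.3 and 510.5 FPKM in SMA, a log2 change of -0.77 that was -0.59 after the correction. Of 32 proteasome subunits, 13 fell. After the correction 2 were lower, a share near the 6.78% of all genes, and without the correction the counts were 4 without SMA replicate 1, 3 without control replicate 1, 24 without control replicate 2 and 0 without SMA replicate 2.

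Long neuronal transcripts lay at the other end. Of 33 synaptic genes 12 rose and none fell (median 0.31), and of 36 receptors and channels 10 rose and none fell (median 0.24), against 6.59% of all genes called higher. Without SMA replicate 2 these medians were 0.15 and 0.20. After the length correction 5 and 2 were higher, with medians of 0.22 and 0.07, against 5.5% of all genes, and the 2 of 36 receptors and channels were then near that share, and without SMA replicate 2 each list had 2. Without control replicate 1 the synaptic list had 3. Camk2a, a kinase of the postsynaptic density, was at 13.5 and 30.6 FPKM in controls and at 34.6 and 45.0 FPKM in SMA, a log2 change of 0.96 ± 0.34 (SE, adjusted p = 0.239). Shank1, a scaffold of excitatory synapses, was at 12.6 and 13.8 FPKM in controls and at 17.2 and 27.1 FPKM in SMA. Snap25 and Syp, of the presynaptic vesicle machinery, were not called, at -0.11 and -0.19.

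Genes of the mitochondrial genome, which are translated inside the organelle and not on cytoplasmic polysomes, were higher in SMA. Of 11 tested, 7 rose and none fell, against 6.59% of all genes called higher, with a median of 0.51, and after the length correction 10 rose, against 5.5%. The count was 5 without SMA replicate 1 and 4 without SMA replicate 2. mt-Nd1, a subunit of complex I, was at 140.8 and 160.4 FPKM in controls and at 230.7 and 223.7 FPKM in SMA (log2 change 0.60 ± 0.14, SE, adjusted p = 0.155). Summed over the 13 genes on the list, the 2 not tested included, FPKM were 1623 and 2072 in controls and 2464 and 2688 in SMA. The sums did not overlap (exact two-sided permutation p = 0.333). mt-Co1 was listed at 0 in all 4 libraries and mt-Co2 at no more than 0.68 FPKM, so these values do not describe the whole mitochondrial genome.

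To see which changes belonged to the polysomal fraction, SMA effects in polysomal and total RNA of day 5 were compared by an interaction term. In total RNA 1466 genes (11.3%) were called, 715 higher (5.51%) and 751 lower (5.79%), and 3 (0.0231%) passed after adjustment. The interaction called 252 genes (1.94%), 97 with a higher and 155 with a lower change in polysomal RNA, and none after adjustment. SMA replicate 1 lacked the Y-linked Ddx3y in both fractions, at 0.15 and 0.50 FPKM, against 22.8 and 20.4 FPKM in SMA replicate 2. Differences between replicates correlated between the fractions at 0.24 in controls and 0.19 in SMA over genes. Between control and SMA, which are different mice, they correlated at 0.19 in polysomal RNA. These correlations therefore cannot tell whether the fractions share a brain. No source states that equal numbers mark 1 brain. With genotype and replicate number as a block, 390 genes were called. Among histones, 24 of 56 had a lower change in polysomal RNA, against 1.19% of all genes, and none a higher one. The count was 12 without control replicate 2, 11 after the length correction, 16 after quantile normalization and 31 with the block. Their median log2 change was -0.53 in total RNA and -1.13 in polysomal RNA. For Hist1h2bk, total RNA gave 28.5 and 21.4 FPKM in controls and 14.5 and 16.4 FPKM in SMA, a log2 change of -0.68, and the difference between fractions was -1.13 (unadjusted p = 0.0017 in limma). Of the histone classes, 8 H2A, 7 H2B, 5 H4, 4 H3 and no H1 genes were among the 24.

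Cell cycle genes had medians of -0.63 in total and -0.70 in polysomal RNA, and 1 of 48 was called for a difference, a share near the 1.94% of all genes. Endothelial genes had medians of -0.63 and -0.56, and 1 of 26 was called. For mitochondrially encoded genes the medians had opposite signs, -0.60 in total and 0.51 in polysomal RNA. In total RNA 4 of 11 were called lower and none higher. By the interaction, 9 of 11 had a higher change in polysomal RNA, against 0.747% of all genes. Without control replicate 1 that count was 2. mt-Nd4l, a subunit of complex I, was at 5.13 and 4.85 FPKM in controls and at 7.46 and 8.48 FPKM in SMA in polysomal RNA. In total RNA it was at 43.3 and 32.6 FPKM in controls and at 26.3 and 19.1 FPKM in SMA. The interaction for this gene was 1.41 (unadjusted p = 0.00046, adjusted p = 1.00).

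The change on day 5 was then set beside that on day 7 in other mice. The sexes were unbalanced on day 7 as well, and in the opposite direction: Ddx3y was at 0.06, 0.04 and 21.1 FPKM in the controls and at 21.04, 21.9 and 0.07 FPKM in SMA, and the part of sex in the stage comparison was not tested. In day 7 polysomal RNA, 1462 genes (11.3%) were called, 723 higher (5.57%) and 739 lower (5.7%), and 62 (0.478%) passed after adjustment. Of 2217 day 5 DEGs measured at both stages, 360 were also called on day 7 in the same direction, which is 16.2% of the day 5 and 24.6% of the day 7 DEGs, and 54 in the opposite direction. Across 12973 genes, Pearson's r of the log2 changes was 0.30 and Spearman's rho 0.22, given without a test since genes are not independent. The interaction of genotype and stage called 1798 genes (13.9%), 738 higher (5.69%) and 1060 lower (8.17%) on day 5, and none after adjustment. The relation to length was stronger in day 5 total RNA, with a rho of 0.56, than in day 5 polysomal RNA, and weak and inverse in day 7 polysomal RNA, with a rho of -0.10.

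Some genes of the vessel, glucocorticoid and astrocyte lists were called in the same direction at both stages. Slc38a5 changed by -2.21 on day 5 and -2.02 on day 7, where the controls lay between 10.2 and 14.6 FPKM and the SMA libraries between 2.46 and 3.15 FPKM. Sult1a1 rose by 1.66 and 1.91, and Agt by 1.33 and 1.83. Of 26 endothelial genes, 15 were lower and 3 higher on day 5, and 17 were lower and 4 higher on day 7. Of all genes, 10.5% were called lower and 6.59% higher on day 5, and 5.7% and 5.57% on day 7. By the interaction, 2 of the 26 had a lower change on day 5, a share near the 8.17% of all genes.

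Other lists had members called for a difference between the stages. The histone median was -1.13 on day 5 and -0.35 on day 7, where 1 of 55 was called and that 1 was higher, and 15 had a lower change on day 5 by the interaction, or 6 after the length correction. Of 48 cell cycle genes 16 were lower on day 7, with a median of -0.50, and 6 had a lower change on day 5 by the interaction, against 8.17% of all genes. Cdk1 changed by -1.65 on day 5 and by -0.66 on day 7, where controls spanned 7.62 to 14.6 FPKM and SMA 4.01 to 8.90 FPKM, and the difference between stages was -0.99 (unadjusted p = 0.048). Small and large ribosomal protein genes had day 7 medians of -0.04 and -0.03, and 21 and 27 of them were lower on day 5 by the interaction. For the respiratory chain the day 7 median was 0.01, with 45 of 76 lower on day 5. After the length correction these counts were 6, 3 and 9, and the stage interaction called 1007 of 12941 genes in either direction. The share of the large subunit genes was then no higher than that of all genes. Quantile normalization gave 1, 7 and 10. Without SMA replicate 2 the counts were 6, 11 and 28, against 6 for the histones, and without control replicate 1 they were 18, 12 and 29, against 7. In total RNA of day 5 the small and large ribosomal medians were -0.30 and -0.32, and no member was called for a difference between fractions.

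**Figure D4:**
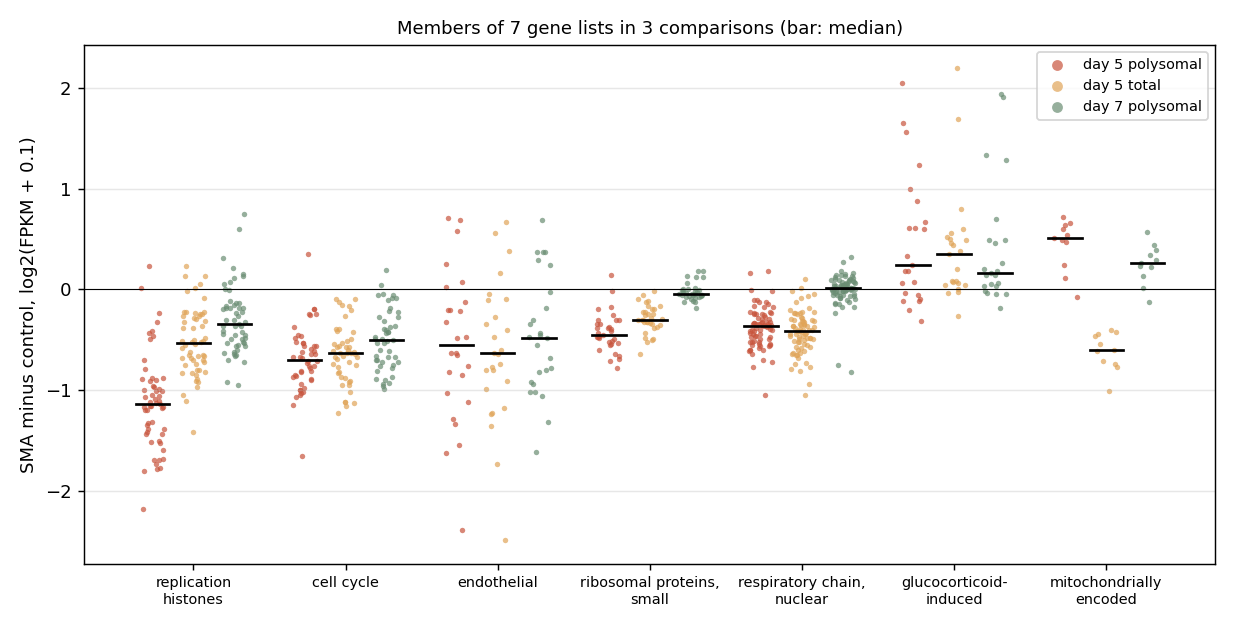
Log2 change between SMA and control for the members (dots) of 7 gene lists in day 5 polysomal, day 5 total and day 7 polysomal RNA, with the median as a black bar. The histone median is lowest in day 5 polysomal RNA (-1.13), the endothelial medians are -0.56, -0.63 and -0.48, and the median of mitochondrially encoded genes is 0.51 in polysomal and -0.60 in total RNA of day 5.

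Outside these lists, Ccl21a, a chemokine of lymphoid vessels, had the largest log2 change of the genes called, -3.09 ± 0.39 (SE, adjusted p = 0.0385), from 4.09 and 8.47 FPKM in controls to 0.85 and 0.42 FPKM in SMA. It lies among near-identical copies, so its value is uncertain. Apod, a lipid carrier of glia, was at 10.9 and 15.3 FPKM in controls and at 24.3 and 39.0 FPKM in SMA (log2 change 1.24 ± 0.25, SE, adjusted p = 0.118). Notch4, a receptor of endothelium, was at 0.72 and 0.99 FPKM in controls and at 2.15 and 2.45 FPKM in SMA, a log2 change of 1.34, against -0.14 in day 7 polysomal RNA (interaction unadjusted p = 0.0044 in limma).

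Other calls rested on 1 library. Spink8, a protease inhibitor, was at 3.62 FPKM in SMA replicate 1 and at most 0.35 FPKM in the other 3 libraries, and its log2 change of 1.96 was 0.44 without that library. The photoreceptor gene Sag was at 7.14 FPKM in SMA replicate 2 and at most 1.08 FPKM elsewhere, and its change of 1.71 was 0.40 without it. The lens gene Crybb3 was at 5.22 FPKM in control replicate 2, and its change of -1.82 was -0.73 without it.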

How the data were processed

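The deposited table gave FPKM per gene for 20 libraries, which the authors made with TopHat2 2.0.14 and Cufflinks 2.2.1 on GRCm38.p4, as named in the submitters' processing notes. The study's methods state that tools ran at their defaults and name no strand setting, although the kit was stranded, so genes that overlap or lie antisense to each other are uncertain. No read counts were used, so no count test was run. Values were taken as log2(FPKM + 0.1), which understates the change of low genes, and SMA was tested against control in the 4 day 5 polysomal libraries with limma 3.58.1 (R 4.3.3, with a mean-variance trend). DEGs had an unadjusted p under 0.05, and Benjamini-Hochberg values over all genes tested stand beside it. Interactions with fraction and stage were fitted in the same way. The length correction removed a lowess curve (span 0.3) per library. On simulated data, 97% of genes changed by 1 log2 unit were recovered in the 12986 genes of this comparison. Whether this share holds for the deposited libraries, which differ in sex and along transcript length, was not tested.

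Members and lists were chosen with earlier results of these data known. Genes were named as the largest changes without overlap, those with the smallest adjusted p, those with primers in the study, leading members of each list and of each interaction, Smn1 and sex-linked genes. Others are named where a list's members are described. Alternatives covered the pseudocount, filters, scaling, model, length, replicate block and each library left out. The length correction without SMA replicate 1 was chosen after seeing the data. Sequences are from RefSeq on GRCm38.p6. Some genes that met these rules are not reported here.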

Additional observations from a re-analysis of the deposited data

Results flagged for a closer look

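At 1 locus of chromosome 8 (GRCm38 chr8:119910360-124345724), 54 protein-coding genes were listed at 0 FPKM in both day 5 polysomal control libraries and above 0 in both SMA libraries. All 54 were above 0 in the other 18 libraries, and Rpl13 was at 164.1 and 134.8 FPKM in SMA. A block of neighbouring genes at 0, housekeeping genes included, is listed here as it stands, and no difference between genotypes was read from it.

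The change in SMA differed between polysomal and total RNA for 252 genes at an unadjusted p under 0.05 in limma, and for 28 at an unadjusted p under 0.01, with none after adjustment.

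The change differed between day 5 and day 7 polysomal RNA for 1798 genes at an unadjusted p under 0.05 in limma, with none after adjustment.

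Outside protein-coding genes, 278 of 1379 genes (20.2%) were called, 168 higher and 110 lower, with none after adjustment. Their rule on values was the same.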

How the results depend on the processing

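FPKM carry no depth, and 2 libraries a side limit every count. Leaving out 1 library moved the DEGs between 842 and 3726, those higher between 243 and 1299 and those lower between 599 and 2427. The lowest came without SMA replicate 2 and the highest without control replicate 2, and where 1 sample is left in a genotype it is assumed to vary like the other. Higher DEGs numbered 1343 with the 10 polysomal libraries in 1 model, and with all 20 libraries there were 3461 DEGs, 1514 of them higher. Lower DEGs numbered 878 after the length correction and 663 when SMA replicate 1 was also left out, a setting chosen after seeing the data. An unadjusted p under 0.01 left 623 (183 higher and 440 lower), and an adjusted p under 0.05 left 37 (2 higher and 35 lower). The adjusted count was 376 with the replicate block, 367 with the block and the length correction, 616 with all 20 libraries, 121 with genes at 0 kept and 0 in the fit of all gene types or with no minimum of the mean. The difference between fractions ranged from 113 to 595 genes with 1 library left out, and that between stages from 883 to 3274, or 1007 after the length correction. Both had 0 genes after adjustment, except that with 1 library left out the stage gave up to 471, without control replicate 2. With the replicate number as a block there were 3052 DEGs. The fraction interaction, with genotype and replicate number as a block, called 390 genes. Between genotypes, replicate numbers are shared labels only: the differences between replicates correlated at 0.19 over genes, and no source says that they pair the samples. The alternatives were run on 34 genes with the largest changes or the smallest adjusted p, of which none reversed, and not on the other genes named. They stayed on their side of the threshold in 664 cases and lost their call in 37, and the cause was not tested.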

Other observations

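Of 30 genes of the integrated stress and unfolded protein responses, 7 fell and none rose (23.3% lower, against 10.5% of all genes), with a median of -0.07. This median lay between -0.19 and 0.02 with 1 library left out, and it was 0.03 after the length correction. Sdf2l1, Manf and Hspa5, which help proteins fold in that compartment, fell by 1.02, 0.77 and 0.55 on the log2 scale. With 1 library left out in turn, the count lay between 2 and 10. Of 24 genes of cholesterol synthesis and uptake, 7 fell and none rose (29.2%), and with 1 library left out the count lay between 2 and 12. Of 24 progenitor and immature neuron genes, 4 fell (16.7%) and 1 rose, with a median of -0.13. After the length correction 2 of the 24 were lower, against 6.78% of all genes. Fabp7, a fatty acid carrier of radial glia, was at 2525 and 1913 FPKM in controls and at 1300 and 1204 FPKM in SMA. Its log2 change of -0.81 was -0.48 after the length correction. Hes1, an effector of Notch, changed by -0.73.

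In a fit of all 14365 genes of any type, 925 were higher and 1281 lower. Of 83 snoRNAs 18 were lower and 2 higher (24.1% called), and 5 of 15 scaRNAs were lower (33.3%). Of all 1379 genes other than protein-coding, 110 were lower and 168 higher (20.2% called). The snoRNA and scaRNA medians were -0.23 and -0.24 without a length correction, beside -0.24 in the shortest class of protein-coding genes. Scarna13 was at 881.1 and 687.4 FPKM in controls and at 381.6 and 317.1 FPKM in SMA. Meg3, a long non-coding RNA, was at 76.7 and 115.2 FPKM in controls and at 193.5 and 190.2 FPKM in SMA.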
